A study of Drosophila melanogaster with 9 samples.

Results

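Autophagy delivers cytoplasm to the lysosome inside a double membrane, the autophagosome. The kinase Atg1 and its partners start the membrane, the transmembrane protein Atg9 supplies lipid, and a ubiquitin-like conjugation system attaches the small protein Atg8a to it. The receptor ref(2)P, the fly p62, binds both ubiquitin and Atg8a and is itself degraded with its cargo. In fly larvae the process is best known from the fat body and salivary gland, and cells with reduced ribosomal protein gene dosage are among the disc cells in which it has been studied. The genes described here are 9 of the 14168 entries of the deposited expression table, taken by their symbols: Atg1, Atg13, Atg17, Atg9, Atg7, Atg3, Atg5, Atg8a and ref(2)P. All 9 were found and all 9 were among the 8487 genes tested. In the BDGP6.54 annotation their positions are as follows. Atg1 (FBgn0260945) lies on chromosome arm 3L at 12784429 to 12805116 on the minus strand. Atg13 (FBgn0261108) lies on chromosome arm 3R at 8349815 to 8352817 on the plus strand. Atg17 (FBgn0037363) lies on chromosome arm 3R at 5669713 to 5679930 on the plus strand. Atg9 (FBgn0034110) lies on chromosome arm 2R at 16294400 to 16297232 on the plus strand. Atg7 (FBgn0034366) lies on chromosome arm 2R at 18620466 to 18625044 on the minus strand. Atg3 (FBgn0036813) lies on chromosome arm 3L at 18748687 to 18750483 on the plus strand. Atg5 (FBgn0029943) lies on chromosome X at 7314622 to 7323770 on the minus strand. Atg8a (FBgn0052672) lies on chromosome X at 10764878 to 10768338 on the minus strand. ref(2)P (FBgn0003231) lies on chromosome arm 2L at 19542468 to 19545548 on the plus strand.

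The data are messenger RNA libraries from wing imaginal discs of Drosophila melanogaster, the epithelia from which the adult wing develops, dissected in the third instar. There were 3 genotypes with 3 biological replicates each, and each extraction pooled 100 discs. Animals of all genotypes were reared at 25 °C. All libraries carried en-GAL4, a driver active in the posterior compartment of the disc, so each library mixes cells with and without the RNA interference. The control was en-GAL4>+, and its column names also carry w1118, a white-eyed laboratory strain. The NAT10 knockdown was en-GAL4 > UAS-NAT10-RNAi, directed against an enzyme that acetylates cytidines of ribosomal RNA. The double knockdown was en-GAL4 > UAS-NAT10-RNAi,Xrp1-RNAi, which also targets Xrp1, a transcription factor that responds to ribosomal stress. The design asks how far the changes after NAT10 loss depend on Xrp1. There was no genotype with Xrp1-RNAi alone, and the NAT10 transcript was less reduced in the double knockdown than in the NAT10 knockdown. Dependence on Xrp1 therefore cannot be told apart from a separate effect of Xrp1 depletion or from weaker NAT10 depletion. Transcripts were measured, not proteins or the passage of material through autophagosomes, and in such whole discs fewer cells of a type and less RNA per cell cannot be told apart.

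Libraries held 14183856 to 19949448 estimated counts, and the lowest count of any of the 9 genes in a library was 265. The fly NAT10 gene, listed as l(1)G0020, was at 62.2 normalised CPM in NAT10 knockdown discs and 74.7 in double knockdown discs against 101 in control, and Xrp1 was at 941 and 409 against 521. Normalised CPM divide each count by the library total after TMM correction. The driver locus gene en was at 61.7 and 71.8 against 101. All 10 wing disc epithelium markers had counts in every library, and their summed level was 6086 to 6154 in control, 4983 to 5046 in NAT10 knockdown discs and 5967 to 6022 in double knockdown discs. Of 8 fat body markers all had counts, and their sum was 367.9 to 391.5, 733 to 750.4 and 1808 to 1849 in the same order. Desat1 made up most of that sum in control and in NAT10 knockdown discs, at mean levels of 363.4, 673 and 477 in the same order. From the NAT10 knockdown to the double knockdown Desat1 fell while the other 7 rose. The part of fat body and other cells outside the disc epithelium in the values below was not tested.

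Among levels per transcript length, Atg8a was by far the most abundant of the 9 transcripts. In deposited FPKM it stood at 235.5 ± 4.04 (SD, n = 3) in control, where it made up 56.05% ± 0.791 of the summed FPKM of the 9 genes. ref(2)P followed at 49.0 ± 2.18 and Atg3, the enzyme that hands Atg8a to lipid, at 44.2 ± 1.42. The other 6 transcripts were lower: Atg1 had 21.4 ± 0.366, Atg13 21.2 ± 1.146, Atg5 17.6 ± 1.254, Atg17 11.9 ± 0.595, Atg9 10.7 ± 0.925 and Atg7 8.53 ± 0.637 FPKM. In control, neighbours in this order overlapped between libraries only for Atg1 and Atg13. The first 3 places and the last were the same in all genotypes, but Atg1 stood at place 4 in control, at place 7 in NAT10 knockdown discs, where its libraries overlapped those of Atg9, and at place 5 in double knockdown discs. In the double knockdown Atg1 overlapped Atg13, and Atg9 overlapped both Atg17 above it and Atg7 below it. The summed FPKM of the 9 genes was 420.0 ± 1.33 in control, 491 ± 1.79 in NAT10 knockdown discs and 429.5 ± 1.82 in double knockdown discs.

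**Figure D1:**
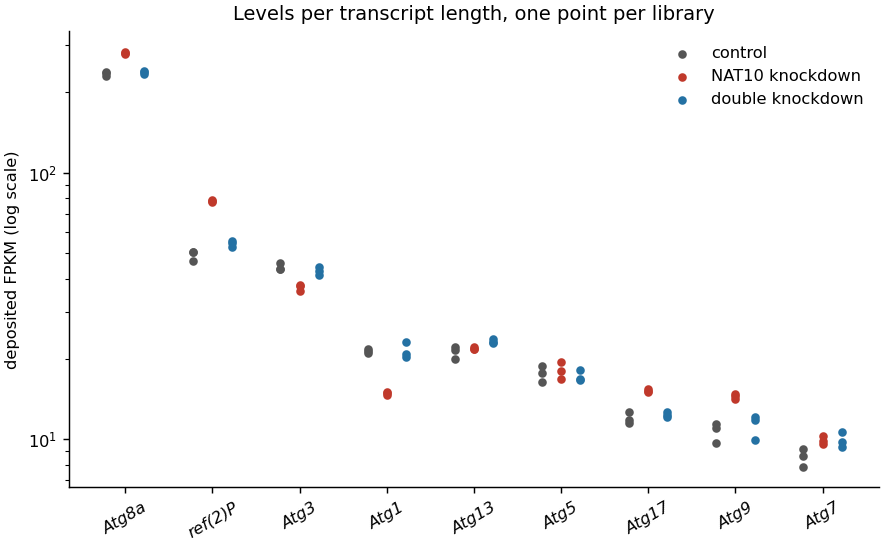
Deposited FPKM (log axis) of the 9 autophagy genes, ordered by their control mean, with 1 point per library and colour for genotype. Atg8a lies at 231 to 238 FPKM in control, far above the other genes, and Atg7 at 7.87 to 9.14 is the lowest.

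The first comparison set NAT10 knockdown discs against control and asks which of these transcripts differ once the enzyme is depleted. The receptor ref(2)P, the conjugated protein Atg8a, the scaffold Atg17, the lipid scramblase Atg9 and the activating enzyme Atg7 were higher, while the kinase Atg1 and the conjugating enzyme Atg3 were lower. All changes were below 2-fold, from 1.58-fold up for ref(2)P to 1.455-fold down for Atg1. In all, 5 of the 9 genes rose and 2 fell (edgeR's quasi-likelihood test, adjusted p under 0.05 over 8487 genes), with 62.1% of all genes tested called in this comparison, 32.5% higher and 29.6% lower. A count of 7 of 9 called is therefore near what most genes showed, and nothing particular to autophagy is read from it. For 7 of the 9 the libraries did not overlap, as for 65.6% of all genes tested. Their median log2 fold change was 0.21, beside 0.030 for all genes tested, and the median size without sign was 0.27 beside 0.24.

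In the initiation complex Atg1 fell, Atg17 rose and Atg13 did not pass in NAT10 knockdown discs. Atg1, the kinase that starts autophagosome formation, had 88.9, 85.4 and 86.3 normalised CPM in the control libraries, 58.9, 60.4 and 59.9 in NAT10 knockdown discs and 83.3, 80.7 and 93.0 in double knockdown discs. All 3 NAT10 knockdown libraries lay below the other 6, which overlapped each other. Its log2 fold change was -0.54 ± 0.049 (SE) in NAT10 knockdown discs (adjusted p = 3.19e-10). With Xrp1 depleted as well it was -0.020 ± 0.047 (95% interval -0.12 to 0.076, adjusted p = 0.791). Atg17, the scaffold of the complex, had 80.2, 72.5 and 74.3 in control, 95.3, 97.3 and 93.9 in NAT10 knockdown discs and 76.5, 78.5 and 75.8 in double knockdown discs. Here the NAT10 knockdown libraries were the 3 highest, by a log2 fold change of 0.33 ± 0.043 over control (adjusted p = 1.92e-07). Atg13, the regulatory partner of Atg1, had 65.8, 60.3 and 66.8 in control, 65.2, 66.6 and 65.0 in NAT10 knockdown discs and 68.0, 68.8 and 71.3 in double knockdown discs. It did not pass in NAT10 knockdown discs (log2 0.026 ± 0.047, interval -0.070 to 0.12, adjusted p = 0.648).

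Within a library the proportions of these transcripts differed between genotypes. The FPKM of Atg1 divided by that of Atg13 was 1.01 ± 0.044 in control, 0.68 ± 0.0064 in NAT10 knockdown discs and 0.92 ± 0.050 in double knockdown discs. The same ratio of Atg17 to Atg1 was 0.56 ± 0.019, 1.02 ± 0.016 and 0.58 ± 0.052. In both ratios the NAT10 knockdown libraries stood apart from the other 6.

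Atg9 is the membrane protein whose vesicles seed the autophagosome. Its libraries had 32.7, 31.3 and 27.5 normalised CPM in control, 40.2, 42.0 and 40.9 in NAT10 knockdown discs and 27.6, 32.9 and 34.3 in double knockdown discs. The NAT10 knockdown was above both other genotypes, which overlapped, and the log2 fold change over control was 0.43 ± 0.075 (adjusted p = 2.65e-05).

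Among the conjugation enzymes Atg3 fell, Atg7 rose and Atg5 did not pass. Atg3, which transfers Atg8a to phosphatidylethanolamine, had 56.7, 53.2 and 53.5 in control, 44.1, 45.8 and 46.1 in NAT10 knockdown discs and 49.8, 51.2 and 54.0 in double knockdown discs. The NAT10 knockdown libraries were the lowest 3, by a log2 fold change of -0.27 ± 0.050 (adjusted p = 4.89e-05). Atg7, which activates both Atg8a and Atg12, had 21.8, 18.8 and 20.5 in control, 22.9, 24.7 and 23.4 in NAT10 knockdown discs and 25.1, 23.0 and 22.3 in double knockdown discs. Both knockdowns lay above control and overlapped each other. The rise in NAT10 knockdown discs (log2 0.21 ± 0.077, adjusted p = 0.0183) was lost with DESeq2 (adjusted p = 0.0911), without control replicate 2 (0.0940) and without NAT10 knockdown replicate 2 (0.102). Atg5, which joins Atg12 and Atg16 in the complex that directs lipidation, ran from 23.3 to 27.5 over all 9 libraries with the 3 genotypes overlapping, and did not pass (log2 0.025 ± 0.075, interval -0.13 to 0.18, adjusted p = 0.790).

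Atg8a, the ubiquitin-like protein that coats the autophagosome, had 284, 291 and 289.9 normalised CPM in control, 345, 340.2 and 341 in NAT10 knockdown discs and 288, 285 and 284 in double knockdown discs. The NAT10 knockdown libraries were the 3 highest and the other 6 overlapped, and the log2 fold change over control was 0.25 ± 0.025 (adjusted p = 3.27e-09). ref(2)P had 110.1, 118 and 118 in control, 185, 182 and 180.4 in NAT10 knockdown discs and 125, 127 and 122 in double knockdown discs. The 3 genotypes did not overlap, with the NAT10 knockdown highest and control lowest. Its log2 fold change over control of 0.66 ± 0.035 (adjusted p = 6.37e-15) was the largest of the 9 in NAT10 knockdown discs. In FPKM, ref(2)P was at 0.21 ± 0.0058 of Atg8a in control, 0.28 ± 0.0023 in NAT10 knockdown discs and 0.23 ± 0.0042 in double knockdown discs. Of the exon bases of ref(2)P, 7.22% also lie in exons of CG10337 on the other strand, and the exons of the other 8 genes overlap no other gene in the BDGP6.54 annotation.

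**Figure D2:**
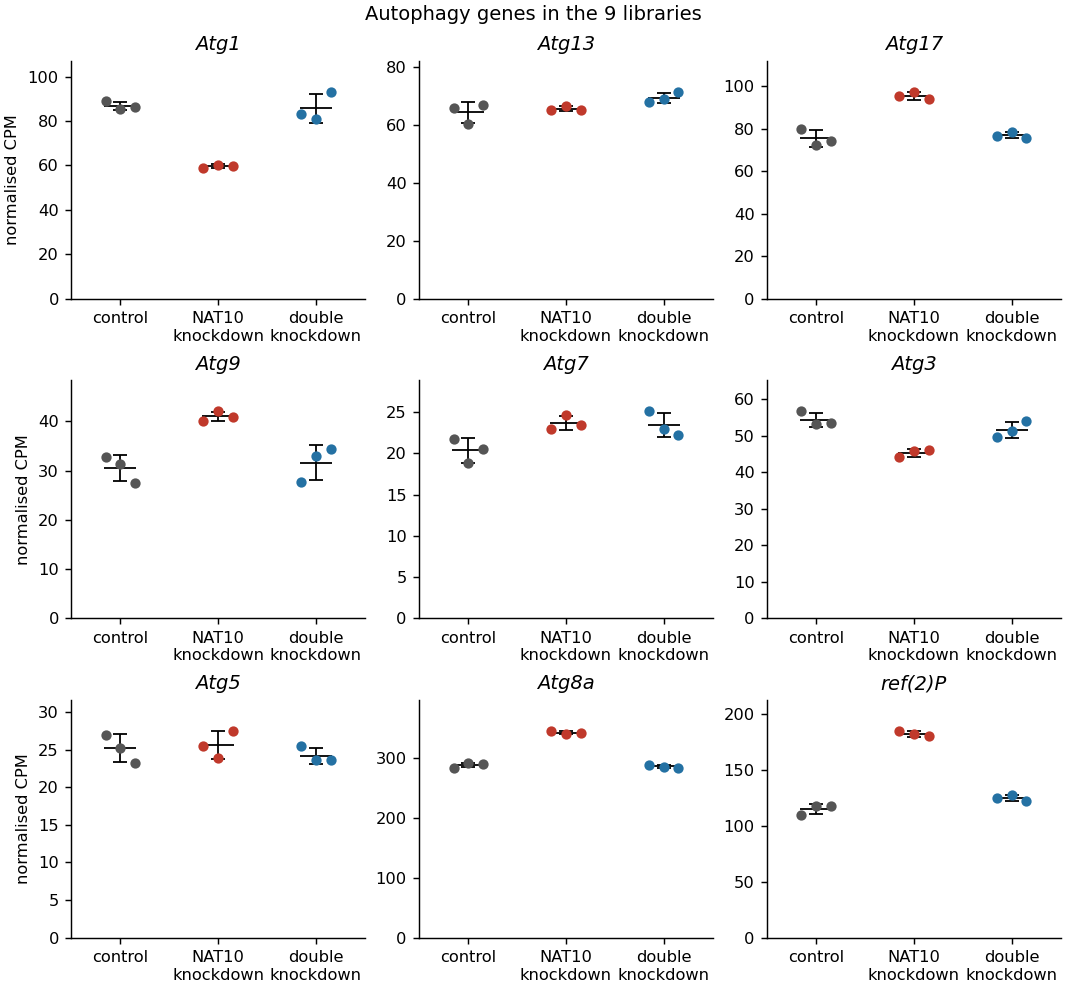
Normalised CPM of the 9 autophagy genes in each library (points) with the mean and SD of 3 libraries per genotype (bars), each panel with its own axis from 0. The NAT10 knockdown stands apart for Atg1, Atg17, Atg9, Atg3, Atg8a and ref(2)P, as for Atg1 at 58.9 to 60.4 against 80.7 to 93.0 in the other 6 libraries.

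The double knockdown was compared with control to see what remained when Xrp1 was depleted as well. For Atg1, Atg17, Atg9, Atg3, Atg5 and Atg8a the genotypes overlapped and no difference passed. The receptor ref(2)P and the activating enzyme Atg7 remained above control, by 1.08-fold and 1.148-fold. These 2 were higher and 0 were lower by edgeR, with 31.3% of all genes tested called in this comparison, 15.7% higher and 15.5% lower. For 3 of the 9 the libraries did not overlap, as for 42.4% of all genes tested. At an unadjusted p under 0.05 edgeR had 3 higher (Atg13 as well) and 0 lower, and DESeq2 had 2 higher and 0 lower. Scaling by total counts alone gave, over all genes, 1613 higher and 1044 lower calls in place of 1335 and 1318.

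ref(2)P had a log2 fold change of 0.12 ± 0.036 over control (adjusted p = 0.0143). That call was lost with DESeq2 (adjusted p = 0.0501), without control replicate 1 (0.0904) and without double knockdown replicate 2 (0.0648). Atg7 was at 0.20 ± 0.076 (adjusted p = 0.0482), close to the threshold, and lost its call under 14 of 19 alternatives, with adjusted p from 0.0250 to 0.212 over them. Atg13 was 0.11 ± 0.046 higher without passing (adjusted p = 0.0789), although its 3 double knockdown libraries lay above the 3 of control. It passed with total counts alone (adjusted p = 0.0288) and with deposited FPKM in place of counts (0.0466). For the others the intervals bound what could have been missed: -0.064 to 0.041 for Atg8a, -0.067 to 0.11 for Atg17, -0.11 to 0.21 for Atg9, -0.18 to 0.023 for Atg3 and -0.21 to 0.098 for Atg5 on the log2 scale.

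The double knockdown was then compared directly with the NAT10 knockdown, which is also the test of whether the effects against control differed, since those share the control libraries. Of the 9 genes 4 were lower and 2 higher, and 56.7% of all genes tested were called, 28.3% lower and 28.4% higher. For 7 of the 9 the libraries did not overlap, as for 63% of all genes tested. ref(2)P fell by 0.55 ± 0.035 on the log2 scale (adjusted p = 3.26e-13), Atg9 by 0.38 ± 0.073 (adjusted p = 0.000109), Atg17 by 0.31 ± 0.042 (adjusted p = 5.28e-07) and Atg8a by 0.26 ± 0.025 (adjusted p = 1.52e-09). Atg1 rose by 0.52 ± 0.048 (adjusted p = 6.36e-10) and Atg3 by 0.19 ± 0.049 (adjusted p = 0.00188). These 6 calls held under all 19 alternatives run. Atg7 did not pass (-0.015 ± 0.074, interval -0.17 to 0.14, adjusted p = 0.885), and neither did Atg13 (0.082 ± 0.046, adjusted p = 0.130) or Atg5 (-0.081 ± 0.074, adjusted p = 0.366). Over the 3 genotypes together 7 of the 9 differed, all but Atg13 and Atg5, with 69% of all genes tested passing.

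**Figure D3:**
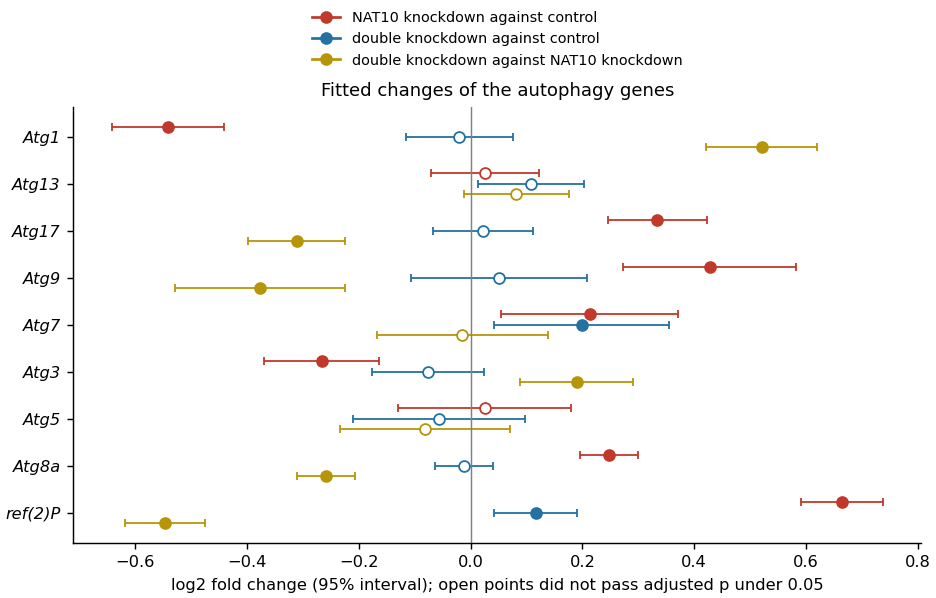
Log2 fold changes of the 9 autophagy genes in the 3 comparisons with 95% intervals, filled where the adjusted p was under 0.05. ref(2)P runs from 0.66 in NAT10 knockdown discs to 0.12 in double knockdown discs against control, and Atg1 from -0.54 to -0.020.

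Beyond these 9 genes, more of the autophagosome machinery was measured. Of 18 further genes 17 were tested, and in NAT10 knockdown discs 10 were higher and 2 lower than in control, where 32.5% of all genes tested were called higher and 29.6% lower. The median log2 fold change was 0.19, beside 0.030 for all genes. The Beclin homologue Atg6 rose from 23.3 ± 2.23 to 36.5 ± 0.973 normalised CPM (log2 0.64 ± 0.070, adjusted p = 9.97e-09). Its partner Pi3K59F, the lipid kinase that marks the forming membrane, rose by 0.45 ± 0.067 (adjusted p = 1.74e-06). The large adaptor bchs fell by 0.44 ± 0.071 (adjusted p = 6.95e-06). The remaining gene, Atg8b, a paralogue of Atg8a known from the male germline, had 0 counts in every library, which allows up to 0.150 to 0.2115 CPM.

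In the double knockdown 2 of the 17 were higher and 1 lower than in control (median log2 -0.0081, beside 0.00083 for all genes), where 31.3% of all genes were called. Pi3K59F was 0.20 ± 0.067 higher (adjusted p = 0.0214) and Atg101, a partner of Atg13, 0.24 ± 0.086 higher (adjusted p = 0.0365), and DESeq2 called neither (adjusted p = 0.0899 and 0.129). Pi3K59F was also lost without control replicate 1 (0.123) or double knockdown replicate 2 (0.0710), and Atg101 without control replicate 1 (0.113), control replicate 3 (0.0740) or double knockdown replicate 1 (0.222). Atg4a, a protease that processes Atg8a, was 0.25 ± 0.052 lower (adjusted p = 0.000635), with 51.4% of its exon bases in exons of CG4629 on the other strand, so its count is uncertain. Against the NAT10 knockdown 9 were lower and 1 higher (median -0.20, beside -0.011 for all genes), where 56.7% of all genes were called. Atg6 fell by 0.68 ± 0.068 (adjusted p = 3.45e-09) and the protease gene Atg4b by 0.43 ± 0.066 (adjusted p = 3.25e-06), while bchs rose by 0.37 ± 0.070 (adjusted p = 7.02e-05). The higher count there was 2 without NAT10 knockdown replicate 1.

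Genes for fusion of the autophagosome with the lysosome were split. Of 14 tested, 3 were higher and 5 lower in NAT10 knockdown discs (median log2 -0.032), and 4 and 4 with total counts alone, near the 62.1% of all genes called. The tethering subunit lt rose by 0.26 ± 0.041 (adjusted p = 5.66e-06) and the Rab7 adaptor Plekhm1 by 0.36 ± 0.069 (adjusted p = 6.10e-05), and the lysosomal GTPase gene Arl8 fell by 0.25 ± 0.055 (adjusted p = 0.000283). The lower count was 3 without control replicate 2 and 3 without NAT10 knockdown replicate 2. In the double knockdown against control 1 was higher and 2 lower (median -0.059), and 1 and 1 with total counts alone, where 31.3% of all genes were called. The GTPase gene Rab2 was 0.19 ± 0.038 lower (adjusted p = 0.000303), Arl8 0.15 ± 0.054 lower (adjusted p = 0.0380) and the tethering subunit car 0.21 ± 0.069 higher (adjusted p = 0.0217). DESeq2 called neither Arl8 (adjusted p = 0.109) nor car (0.0887), and both were lost without control replicate 1 (0.237 and 0.0841), double knockdown replicate 1 (0.112 and 0.0614) or double knockdown replicate 3 (0.0597 and 0.0926), and Arl8 also without double knockdown replicate 2 (0.0746), with total counts alone (0.0870) and with only the 2 genotypes compared in the fit (0.0552). Between the knockdowns, where 56.7% of all genes were called, 2 were higher and 3 lower, among them lt, which fell by 0.19 ± 0.040 (adjusted p = 0.000193), Plekhm1, by 0.22 ± 0.067 (adjusted p = 0.00570), and the tethering subunit Vps39, by 0.15 ± 0.056 (adjusted p = 0.0214). Vps39 was lost with DESeq2 (0.110), without NAT10 knockdown replicate 1 (0.0911) or 3 (0.101) and without double knockdown replicate 3 (0.1004). The higher count was 0 with DESeq2 and without NAT10 knockdown replicate 3, double knockdown replicate 1 or double knockdown replicate 2.

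Of 16 lysosomal genes 4 were higher and 4 lower in NAT10 knockdown discs (median log2 0.016), beside 62.1% of all genes called, and nothing particular to the lysosome is read from this count. The proton pump subunit Vha55 fell by 0.28 ± 0.027 (adjusted p = 1.58e-09), the efflux transporter spin by 0.36 ± 0.037 (adjusted p = 3.25e-09) and the membrane protein Lamp1 by 0.26 ± 0.031 (adjusted p = 4.92e-08). Among the 4 higher were the pump subunits Vha100-2, by 0.26 ± 0.043 (adjusted p = 7.03e-06), and Vha68-2, by 0.11 ± 0.030 (adjusted p = 0.0018). The protease gene CtsL1 was also higher, by 0.25 ± 0.030 (adjusted p = 5.24e-08). In the double knockdown 1 was higher and 3 lower than in control (median -0.027), beside 31.3% of all genes called: the pump subunit Vha100-2 was 0.23 ± 0.043 higher (adjusted p = 0.000135), while Lamp1 was -0.18 ± 0.030 and spin -0.18 ± 0.036 (adjusted p = 5.40e-05 and 0.000318). Between the knockdowns 3 were higher and 2 lower, beside 56.7% of all genes called, with Vha55 up by 0.23 ± 0.027 (adjusted p = 6.77e-08), spin up by 0.18 ± 0.037 (adjusted p = 0.000154) and the protease cathepsin L, CtsL1, down by 0.23 ± 0.029 (adjusted p = 2.49e-07). The count of lysosomal genes lower there was 4 with only the 2 genotypes compared in the fit, 4 without control replicate 1 and 1 without NAT10 knockdown replicate 1.

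Of 17 regulators 7 were higher and 7 lower in NAT10 knockdown discs (median log2 0.061), where 62.1% of all genes tested were called. Their median change without sign was 0.20, beside 0.27 for the 9 autophagy genes and 0.24 for all genes. REPTOR and REPTOR-BP, transcription factors that act when the TOR kinase is inhibited, rose from 33.7 ± 0.649 to 82.5 ± 2.48 (2.45-fold, adjusted p = 2.56e-18) and from 15.3 ± 0.725 to 31.3 ± 3.11 (2.04-fold, adjusted p = 1.83e-11). SNF4Agamma, a subunit of the AMP-activated kinase that phosphorylates Atg1, rose 1.59-fold (adjusted p = 5.95e-14). Among the 7 lower were Tor, by a log2 fold change of -0.32 ± 0.029 (adjusted p = 3.44e-10), and foxo, by -0.56 ± 0.095 (adjusted p = 0.000284). In the double knockdown 6 were higher and 6 lower than in control (median -0.073), where 15.7% of all genes were called higher and 15.5% lower. REPTOR and REPTOR-BP were then at 51.6 ± 1.3 and 19.99 ± 0.690, still above control (adjusted p = 1.99e-10 and 0.000773), and crc, the fly ATF4, was 0.14 ± 0.026 lower (adjusted p = 0.000163). Between the knockdowns 9 were lower and 3 higher (median -0.087), beside 28.3% and 28.4% of all genes, with REPTOR at -0.68 ± 0.044, SNF4Agamma at -0.50 ± 0.039 and crc at -0.42 ± 0.026 (adjusted p = 6.28e-13, 1.59e-11 and 1.54e-13). Reads of crc may be shared with CG46314, whose exons hold 73.5% of its exon bases, which makes this count uncertain. With FPKM in place of counts the lower counts against control were 4 and 3.

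**Figure D4:**
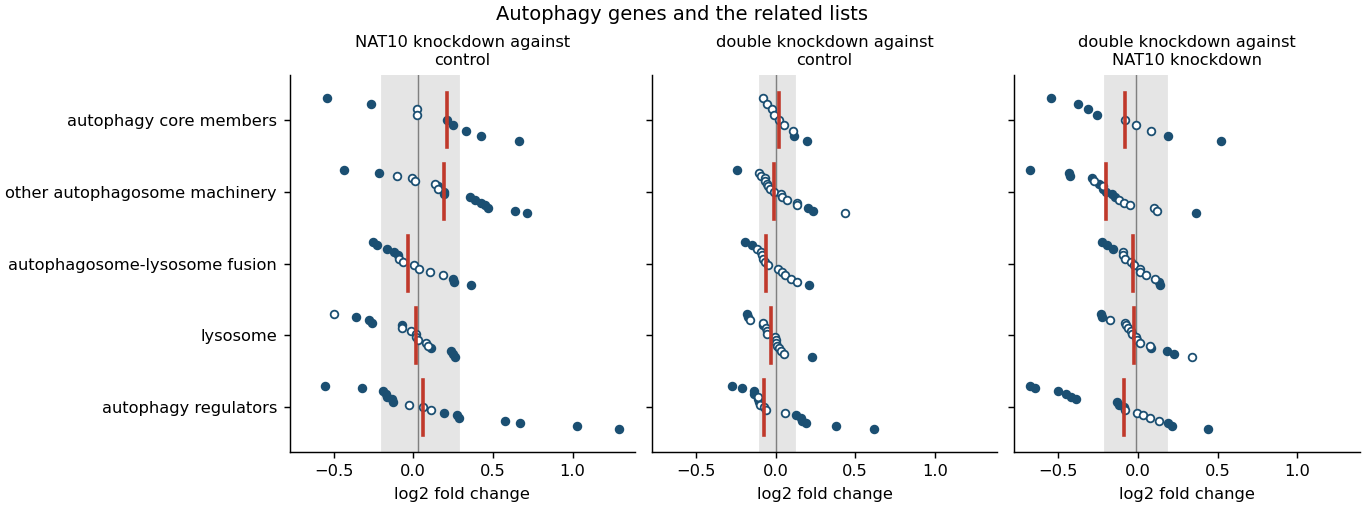
Log2 fold changes of the 9 autophagy genes and of the 4 related lists in the 3 comparisons, filled where the adjusted p was under 0.05, with each list's median in red and the interquartile range of all 8487 genes tested in grey. The median of the other autophagosome machinery goes from 0.19 in NAT10 knockdown discs to -0.0081 in double knockdown discs against control.

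Many other genes had profiles like those of the 3 members that differed most between the genotypes. Over the 9 libraries the log2 CPM of ref(2)P was most like that of Non1 (Pearson r = 0.998), LTV1 (0.997) and CG12643 (0.997), and 1091 other genes had r over 0.9 with it. For Atg1 the 3 most alike were wts (0.996), tna (0.995) and nocte (0.992), and 1014 other genes had r over 0.9 with it. For Atg8a they were RpA-70 (0.998), CG32549 (0.997) and Bin1 (0.996), and 943 other genes had r over 0.9 with it. These values are descriptions over libraries that share 3 genotypes.

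Some markers of the disc epithelium and of other tissues also differed between the genotypes. The counts of markers called below stand beside 32.5% of all genes tested called higher and 29.6% lower in NAT10 knockdown discs. In the double knockdown against control these shares were 15.7% and 15.5%. Against control, 7 of 8 fat body markers rose in NAT10 knockdown discs and 8 of 8 with Xrp1 also depleted, with median log2 fold changes of 1.71 and 6.48. Their sum was highest in double knockdown discs, and its bearing on the levels of the autophagy genes was not tested. Of 8 salivary gland markers only 2 passed the filter on low counts, and Sgs7 and Sgs8 had 0 counts in NAT10 knockdown discs and Sgs4 in control. The salivary gland sum was 215 to 230.4 in control, 78.6 to 84.8 in NAT10 knockdown discs and 145 to 157 in double knockdown discs. CrebA, a secretory pathway transcription factor, made up most of that sum at mean levels of 218.5, 76.1 and 149, while the other marker tested, sage, rose in NAT10 knockdown discs (log2 0.64 ± 0.20, adjusted p = 0.00831). These 2 markers were named after their values were seen. Hemocyte markers summed to 25.7 to 27.5, 14.96 to 17.4 and 15.4 to 17.6, muscle markers to 309 to 319, 326 to 333 and 327 to 336, and the 5 tracheal markers to 992 to 1015, 1049 to 1082 and 1043 to 1065. Of the 8 hemocyte markers 4 fell in NAT10 knockdown discs and 2 with the double knockdown, and none rose. Of the 8 muscle markers 6 fell and 2 rose in NAT10 knockdown discs, with a median log2 fold change of -0.84, and 5 fell and 1 rose with the double knockdown, so that the muscle sums hide opposite changes. Of the 5 tracheal markers 3 fell and 2 rose in NAT10 knockdown discs, and 2 rose with the double knockdown. Of the wing disc epithelium markers 9 of 10 fell and 1 rose in NAT10 knockdown discs, and 2 fell and 1 rose with the double knockdown.

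In the authors' deposited table for the NAT10 knockdown 5 of the 9 genes had an FDR under 0.05, namely ref(2)P, Atg9, Atg1, Atg17 and Atg8a. That authors' deposited table lists Atg3 at a log2 ratio of -0.25 with an FDR of 0.380 and Atg7 at 0.21 with an FDR of 0.148. Atg8a, at a ratio of similar size (0.26), had an FDR of 0.00499 there. The authors' test is not given, so the FDR of Atg3 cannot be set beside the edgeR result. In the authors' deposited table for the double knockdown 2 had an FDR under 0.05, ref(2)P at 0.14 (FDR 0.0115) and Atg7 at 0.21 (FDR 0.0426). The share of all genes under that FDR in the authors' tables was not computed. Nothing particular to autophagy is therefore read from these counts.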

How the data were processed

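The deposited values were estimated counts and FPKM for each gene in each library. The authors' tools, per the submitters' processing notes, included RSEM (no version), StringTie 1.3.1, HISAT2 2.1.0 and fastp 0.18.0, with no roles stated. The log2 fold changes, p-values and FDR of the 2 comparison tables were deposited by the authors, whose test, genome build and strand setting are not given in the sources used here. Between 8.19% and 9.11% of count values per library were not whole and were rounded. The main test was edgeR's quasi-likelihood test (version 4.0.16, R 4.3.3, robust), on all 9 libraries together after TMM scaling and filterByExpr. P-values of the 8487 genes kept were adjusted by Benjamini-Hochberg, and 0.05 was the threshold. SE and 95% intervals come from that fit, whose common coefficient of variation was 3.61%. DESeq2 1.42.0, limma 3.58.1 on log2(FPKM + 1) or log2(FPKM + 0.1), other scalings and filters, a replicate block and each library left out were alternatives. The steps were tested on simulated data. Libraries are biological replicates per the labels. A floor is 3 counts, and floors and intervals of counts cover counting error only.

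The members and lists were chosen with earlier results of these data known. Named genes were the 9 members, the targeted genes, up to 3 called genes with the smallest adjusted p per list and comparison, and for the 3 members differing most over the genotypes the 3 genes with the highest correlation. Desat1, Vha68-2, foxo and Tor, and Vha100-2 and CtsL1 in NAT10 knockdown discs, were added after their values were seen. Of the listed genes only dys was not matched, and CtsF was matched by its identifier (listed as CG12163). Positions and exon overlaps come from release 115 of the BDGP6.54 annotation. Tables and figures used Python 3.11.15, pandas 2.3.3, numpy 2.4.6 and matplotlib 3.10.9.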

Additional observations from a re-analysis of the deposited data

How the results depend on the processing

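In the NAT10 knockdown against control and between the knockdowns, the counts of members called stayed within 1.5 times the reported ones under every alternative run, and 6 of the 7 and all 6 members called there kept their calls (Atg7 is the exception). The count in the double knockdown against control, 2, was 0 with DESeq2 (2 at an unadjusted p under 0.05) and at an adjusted p under 0.01 (edgeR, 3 unadjusted). It was 1 with RLE factors, with no filter and with only the 2 genotypes compared in the fit, and 0 to 2 with a library left out. With total counts alone it was 3, Atg13 being called as well. With FPKM it stayed at 2, as Atg7 lost its call and Atg13 gained one. Over all genes, 867 in place of 1318 were lower in that comparison with FPKM and a pseudocount of 0.1. Of 513 member values under alternatives 488 kept their side of the threshold, 22 lost a call, 3 gained one and none with a call changed sign. The replicate numbers did not pair the libraries: no label ties them, and deviations of same-numbered libraries correlated by -0.028 to 0.077. With the replicate block the members called were 7, 2 and 6, as without it, and no call of a member changed. Of the members, Atg7 had the lowest depth in most libraries, with 265 to 500 counts per library. The double knockdown calls of Atg7 and ref(2)P were both lost without double knockdown replicate 2, and 1 of them without each of the other libraries except double knockdown replicate 3.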
